A study of Mus musculus with 12 samples.

Results

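Plet1 and 33 genes of ductal and tumor epithelium were followed in macrophages sorted from mouse pancreas, on 6 arrays of pancreatic tumor macrophages and 6 arrays of normal pancreas macrophages. The 34 genes are named epithelial genes found by gene name among 27274 genes with a named probe. Where a gene had several probes, the one with the highest mean processed signal over the 12 arrays stood for it, and 14 of the 34 genes had more than 1 probe. Plet1 was selected on its rise, the largest of all genes in these same arrays, so its difference between groups is a description and was not tested. The question was whether Plet1 goes with the epithelial genes from array to array.

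The mice of both groups are labelled as female C57/B6 animals of 4 to 5 months, with no genotype given. The tumor group is macrophages of pancreas tumor, and the normal group is macrophages of normal pancreas. The submitters' texts name implanted tumors in one place and wild-type, KPC and FLT3-CRE/LSL-YFP mice in another, and they do not tie any sample to one of these. KPC mice are a genetic model that develops pancreatic ductal adenocarcinoma, and FLT3-CRE/LSL-YFP mice mark cells with a history of Flt3 expression.

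Epithelial cells of the pancreatic ducts are joined by adherens and tight junctions, hold a cytoskeleton of simple keratins, and carry mucins on the surface that faces the duct. Ductal adenocarcinoma keeps many of these transcripts and adds others of gastric type, such as trefoil factors and gel-forming mucins. They serve as markers of epithelium and not of macrophages. Plet1 encodes a surface protein anchored to the membrane by a lipid, first known from placental and epithelial progenitors of the mouse, and it is also expressed by dendritic cells of the mouse intestine.

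The signal of each gene here is that of a designed probe of 60 bases, and a probe reads only its own stretch of the transcript. The probes of Plet1 and of the ductal markers Epcam and Krt19 are shown because the comparison turns on them. Capitals mark the whole codons of the reading frame without a stop codon, which was the only such frame in each of these probes.
Plet1: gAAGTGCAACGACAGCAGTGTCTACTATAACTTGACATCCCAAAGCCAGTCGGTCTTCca
Epcam: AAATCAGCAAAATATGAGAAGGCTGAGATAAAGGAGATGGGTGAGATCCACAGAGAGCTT
Krt19: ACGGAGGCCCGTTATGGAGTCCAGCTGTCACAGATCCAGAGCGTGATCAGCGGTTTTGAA
On mm9 the array annotation puts these probes at chr9:50307294-50307353 in Plet1, chr17:88048972-88049800 in Epcam and chr11:100002392-100002451 in Krt19. The Epcam probe covers a span of 829 bases of genome, more than its own length. The annotation does not name exons or UTRs. Plet1 has another probe at 50313107 to 50313166 of chromosome 9, in which 0 of the reading frames are free of stop codons.

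Values below are log2 processed signals relative to the 75th percentile of the same array, and values between -6.27 and -4.25 were the lowest on an array. Arrays 4 and 6 of tumor share a sample name, as do arrays 2 and 3 of normal, and each pair was averaged, which left 5 samples per group. The 75th percentile of the signal was lowest on normal arrays 2 and 3 (398 and 430.2) and ran to 1547 on normal array 6, and 39.3% to 58.7% of probes were well above background. That lowest value was -4.25 on normal array 2 and -6.27 on normal array 6, so a gene near the floor reads higher on the dimmer arrays. Of the macrophage markers, 17 of 17 passed the filter and 0 passed the threshold between groups in limma. Their share of summed signal was 0.653% to 0.776% on tumor arrays and 0.608% to 0.863% on normal arrays. Cd163 had the largest difference of them, -1.77 on the log2 scale, tumor minus normal (limma adjusted p = 0.122). It was the 1 macrophage marker whose groups did not overlap.

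Plet1 was higher in each tumor sample than in any normal sample. Its values were 4.27, 4.23, 1.35, 1.08 and 2.57 in tumor samples 1, 2, 3, 4 with 6, and 5, and -5.19, -0.091, -5.17, -2.30 and -1.68 in normal samples 1, 2 with 3, 4, 5 and 6. Tumor samples 1 and 2 were highest, normal samples 1 and 4 lay near the floor, and the groups did not overlap. The mean was 2.70 ± 1.52 in tumor and -2.89 ± 2.24 in normal (SD, 5 samples each), a difference of 5.59 on the log2 scale, the largest of 16402 genes. The probe stood well above background on 6 of 6 tumor arrays and on 4 of 6 normal arrays, and normal arrays 1 and 4 were those below, so the size of the difference is uncertain. The other Plet1 probe, with the same counts of arrays, averaged 1.93 ± 1.57 in tumor and -2.44 ± 0.47 in normal samples, a difference of 4.37. Within single slides the difference was 6.84, 3.92 and 3.79 for slides 1, 2 and 3, and it was 4.01 after normexp background correction.

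None of the epithelial genes passed the test for a rise in tumor samples. Of the 33 besides Plet1, 26 were well above background on at least 3 arrays of a group and were tested. Of these 26, 0 rose and 1 fell, Onecut1, at an adjusted p under 0.05 in limma, whereas 0.317% of all genes tested rose and 0.512% fell (0.829% in either direction). Without adjustment, 1 of the 26 was higher and 3 were lower at p under 0.05, against 1098 and 1026 of all genes. The difference was positive for 6 and negative for 20 of the 26, with a median of -0.45 on the log2 scale, beside a median of -0.0031 over all genes tested.

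The size of that lean to negative values depended on the samples used. With 1 sample left out, the median stayed negative, from -0.67 to -0.13. It was -0.13 without the sample of normal arrays 2 and 3, and 10 of 26 differences were then positive. Without normal sample 6 it was -0.67, with 5 of 26 positive. The median was -1.17 and -1.28 within slides 1 and 2, which both hold the sample of normal arrays 2 and 3. It was 0.27 within slide 3, where 16 of 26 were positive and which holds normal sample 6 and tumor sample 5. When arrays were scaled on macrophage genes, 9 of 26 were positive. That scaling moved the median of all genes to 0.18 and left the median of the 26 below it, at -0.27. The upper 95% bound of the difference lay below 1 on the log2 scale for 16 of the 26, and the highest was 4.08, for Grhl2. For bulk samples of this kind, fewer cells of a type and less RNA per cell cannot be told apart.

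**Figure D1:**
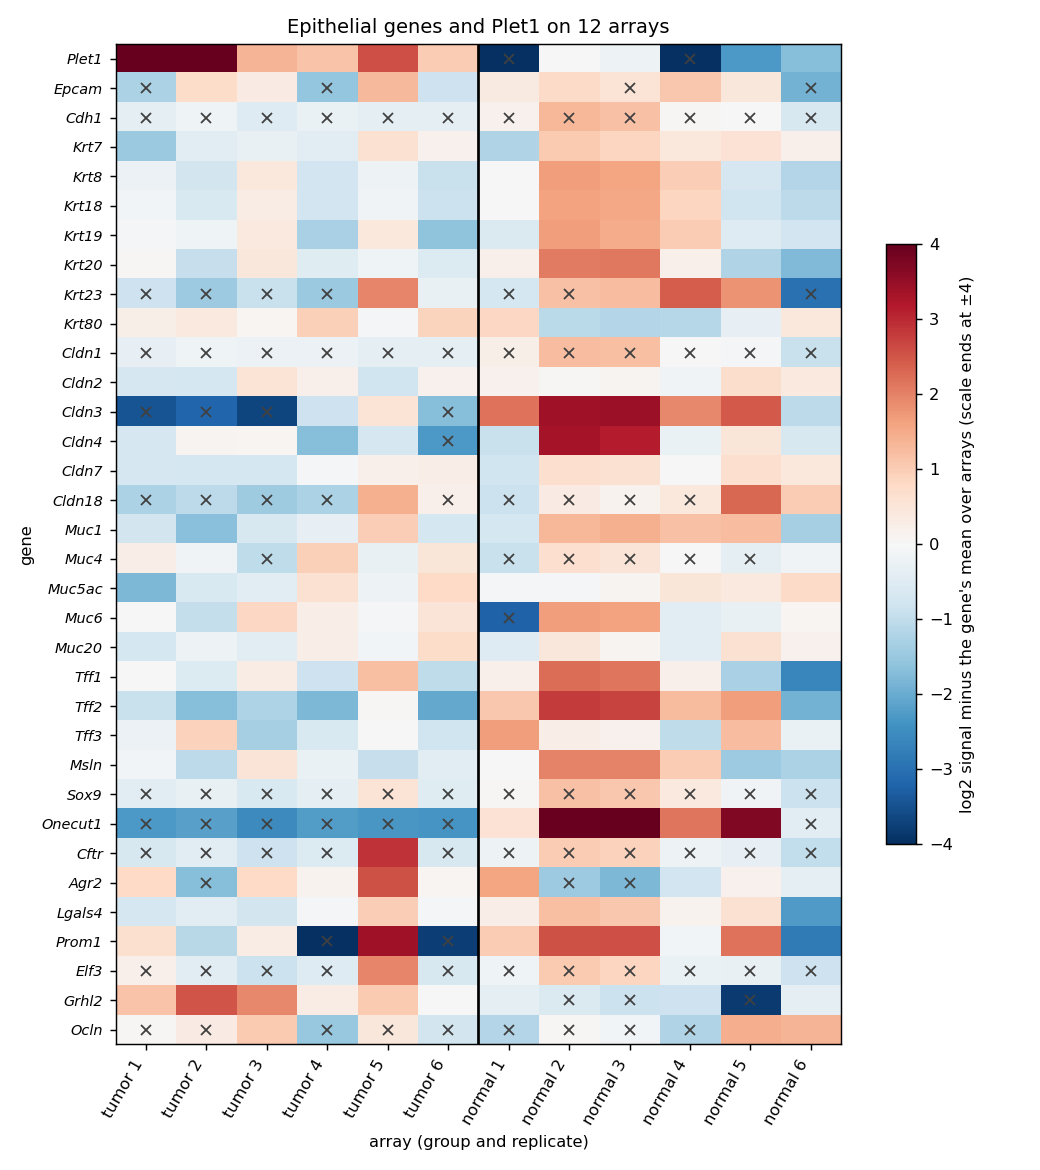
Log2 signal of the 34 genes on the 12 arrays, relative to each gene's mean over arrays, tumor arrays at the left and normal arrays at the right of the line. A cross marks an array on which the probe was not well above background. Plet1 is high on 6 of 6 tumor arrays, while Krt8, Krt18, Krt19, Krt20, Cldn3, Cldn4, Tff1 and Tff2 are highest on normal arrays 2 and 3.

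Of the adhesion genes, Epcam encodes a surface glycoprotein used as a general marker of epithelium. Epcam had values of -3.52, -1.51, -1.93, -3.45 and -0.98 in tumor samples 1, 2, 3, 4 with 6, and 5, and of -1.91, -1.61, -1.20, -1.82 and -4.17 in normal samples 1, 2 with 3, 4, 5 and 6. The groups overlapped through their whole range, with tumor samples 1 and 4 with 6 and normal sample 6 low. Its difference was -0.14 (95% interval -1.58 to 1.30, limma adjusted p = 0.948), and the probe was well above background on 4 of 6 arrays of either group. Cdh1, which encodes E-cadherin, the protein of epithelial adherens junctions, was well above background on 0 of 12 arrays, with values of -5.82 to -5.46 in tumor and -5.95 to -4.04 in normal samples.

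None of the keratins passed the test. Krt8 and Krt18, which pair into one filament, were well above background on all 12 arrays. Krt8 had values of 2.27, 1.75, 2.93, 1.67 and 2.28 in tumor samples 1, 2, 3, 4 with 6, and 5, and of 2.50, 4.12, 3.50, 1.83 and 1.32 in normal samples 1, 2 with 3, 4, 5 and 6. The normal samples spread on both sides of the tumor samples. Krt18 had values of 3.86, 3.35, 4.26, 3.14 and 3.80 in tumor samples in that order, and of 3.98, 5.53, 4.82, 3.17 and 2.90 in normal samples in that order. Krt18 showed the same ranking of normal samples as Krt8, with 2 with 3 at the top and 6 at the bottom. The differences were -0.47 ± 0.51 for Krt8 and -0.40 ± 0.49 for Krt18 (log2, SE, limma adjusted p = 0.730 and 0.760).

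Krt19 and Krt7, the keratins by which ductal cells are usually recognised, also missed the threshold. Krt19 had values of 1.46, 1.34, 1.88, 0.045 and 1.93 in tumor samples 1, 2, 3, 4 with 6, and 5, and of 0.93, 3.08, 2.53, 0.97 and 0.74 in normal samples 1, 2 with 3, 4, 5 and 6. Normal samples 2 with 3 and 4 were above every tumor sample, and the other normal samples lay among them. Its difference was -0.32 (95% interval -1.50 to 0.86, limma adjusted p = 0.832). Krt7 had values of -1.09, -0.048, 0.097, 0.26 and 1.02 in tumor samples and -0.81, 1.37, 0.84, 0.996 and 0.62 in normal samples, in the same order. Sample 1 of either group was lowest for Krt7, and the groups overlapped, with a difference of -0.56 ± 0.46 (log2, SE, limma adjusted p = 0.645).

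Of the other keratins, Krt20 of gastric and intestinal epithelium differed by -0.14 and Krt80 by 0.58, both well above background on all 12 arrays. Krt23 differed by -0.77 and was detected above background on 2 of 6 tumor arrays and 3 of 6 normal arrays. The 7 keratins ranged from -0.77 to 0.58 on the log2 scale, with 1 positive difference and a lowest limma adjusted p of 0.576.

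The claudins, which seal tight junctions, had negative differences in the 4 that were tested, from -3.98 to -0.53. Cldn3 had values of -5.78, -5.51, -5.98, -3.59 and -1.79 in tumor samples 1, 2, 3, 4 with 6, and 5, and of -0.16, 1.09, -0.41, 0.11 and -3.38 in normal samples 1, 2 with 3, 4, 5 and 6. Tumor sample 5 and normal sample 6 crossed, and every other normal sample lay above every tumor sample. The probe, on mm9 chromosome 5 at 135463284 to 135463342, stood well above background on 2 of 6 tumor arrays and 6 of 6 normal arrays. The difference of -3.98 ± 0.96 (log2, SE) missed the threshold (limma adjusted p = 0.105). Only its detection in the normal group carried Cldn3 through the filter on dim probes. Tumor samples 1, 2 and 3 read close to the lowest values of their arrays (-5.87, -5.74 and -6.12). Part of the fitted value is thus a distance to the floor, and how far Cldn3 fell cannot be read from it. The limma adjusted p was 0.0270 with 12 separate arrays, which counts arrays of the same sample name separately. It was 0.0452 with trended and robust variances, 0.0460 without tumor sample 5 and 0.0284 without normal sample 6. The floor limits these fits too. Over all alternatives run, the adjusted p of Cldn3 was 0.0270 to 0.999.

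Cldn4, a claudin that is abundant in pancreatic tumors, had values of -1.74, -0.94, -0.99, -3.06 and -1.74 in tumor samples and of -1.94, 2.17, -1.31, -0.58 and -1.69 in normal samples, in the same order as Cldn3. Normal sample 2 with 3 was highest and tumor sample 4 with 6 lowest, and the groups overlapped. Cldn4 differed by -1.02 ± 0.74 (log2, SE, limma adjusted p = 0.590). Cldn7 had values of -1.24, -1.26, -1.26, -0.45 and -0.36 in tumor samples and of -1.36, 0.078, -0.56, 0.12 and -0.14 in normal samples, and the groups overlapped. Cldn7 and Cldn2 differed by -0.54 and -0.53 with limma adjusted p of 0.528 and 0.514. Cldn1 was well above background on 0 of 12 arrays. Cldn18, a claudin of stomach lining and of many pancreatic tumors, and Ocln, which encodes occludin, were each well above background on 1 of 6 tumor arrays and 2 of 6 normal arrays, and were not tested.

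The mucins spread to both sides of 0, between -0.87 and 0.50, with 2 of 5 positive and a lowest limma adjusted p of 0.442. Muc1, a mucin of the ductal surface, had values of -1.72, -2.63, -1.62, -1.49 and 0.0024 in tumor samples 1, 2, 3, 4 with 6, and 5, and of -1.66, 0.39, 0.20, 0.25 and -2.29 in normal samples 1, 2 with 3, 4, 5 and 6. Tumor sample 5 was level with the high normal samples, and normal samples 1 and 6 were level with the low tumor samples. Muc1 differed by -0.87 and Muc5ac, a gel-forming mucin of stomach surface cells, by -0.80 on the log2 scale. Muc6, the mucin of stomach glands, differed by 0.50 and Muc20 by -0.21. Muc4, a membrane mucin switched on in pancreatic neoplasia, stood well above background on 5 of 6 tumor arrays and 1 of 6 normal arrays, yet its means differed by 0.066 ± 0.36 (log2, SE, limma adjusted p = 0.954).

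Of the secreted genes, the trefoil factors are small peptides that protect mucosal surfaces. Tff2 had values of 2.90, 2.10, 2.55, 1.88 and 3.83 in tumor samples 1, 2, 3, 4 with 6, and 5, and of 4.88, 6.54, 5.07, 5.46 and 1.89 in normal samples 1, 2 with 3, 4, 5 and 6. Without normal sample 6, which lay at the level of the lowest tumor sample, the groups would not overlap. The difference was -2.11 ± 0.75 (log2, SE, limma adjusted p = 0.266), and it was -2.83 without normal sample 6 (0.0195), within a range of 0.0195 to 0.999 over all alternatives run. Tff1 had values of 3.54, 3.02, 3.86, 2.65 and 4.78 in tumor samples and of 3.77, 5.76, 3.76, 2.28 and 0.96 in normal samples, in the same order, and the groups overlapped.

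Tff1 differed by 0.27 and Tff3 by -0.64, with limma adjusted p of 0.910 and 0.657. The array annotation places the Tff1 probes on chromosome 5 of mm9, whereas the RefSeq table has Tff1 on chromosome 17, so what this probe reads is uncertain. Agr2, a chaperone of mucin folding raised in many carcinomas, had values of -1.06, -3.56, -1.05, -1.74 and 0.69 in tumor samples and of -0.27, -3.48, -2.62, -1.67 and -2.26 in normal samples. Tumor sample 5 was highest and the groups overlapped (difference 0.72 ± 0.77, log2, SE, limma adjusted p = 0.725). Lgals4, a galectin of the gut lining, differed by -0.17 by its brightest probe and by -0.54 and -0.51 by its other probes.

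Of the surface and channel genes, Msln encodes mesothelin, which is made by mesothelium and by most pancreatic ductal cancers. Msln had values of 2.44, 1.48, 3.05, 2.20 and 1.63 in tumor samples 1, 2, 3, 4 with 6, and 5, and of 2.52, 4.53, 3.56, 1.09 and 1.28 in normal samples 1, 2 with 3, 4, 5 and 6. The normal samples again lay on both sides of the tumor samples, with a difference of -0.44 ± 0.64 (log2, SE, limma adjusted p = 0.807). Prom1, which encodes CD133 of the apical membrane, spread widely, from -4.58 to 3.12 in tumor and from -3.08 to 2.30 in normal samples, and differed by -0.78 ± 1.37 (log2, SE). Cftr, the chloride channel of duct cells, was well above background on 1 of 12 arrays, that of tumor sample 5.

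Onecut1, a transcription factor of pancreatic progenitors, ducts and acinar cells, was the 1 gene of the 26 past the threshold. Onecut1 had values of -5.85, -5.72, -6.10, -5.85 and -5.88 in tumor samples 1, 2, 3, 4 with 6, and 5, and of -2.98, 0.43, -1.43, 0.16 and -4.01 in normal samples 1, 2 with 3, 4, 5 and 6. Every tumor sample lay at the floor, and the normal samples spread widely above it, with no overlap. The probe, on mm9 chromosome 9 at 74737402 to 74737461, stood well above background on 0 of 6 tumor arrays and 5 of 6 normal arrays, so the fall was at least 4.03-fold (limma adjusted p = 0.0299). The gene passed the filter on dim probes only through the normal group, where it was high, and the fitted difference of -4.31 sets normal samples against the floor, so its size is uncertain. Another probe of Onecut1, well above background on 0 of 6 tumor arrays and 2 of 6 normal arrays, differed by -0.98.

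The call on Onecut1 depended on the setting. Its limma adjusted p was 0.0585 after quantile normalization and 0.0586 with the authors' deposited log2 values. It lay between 0.0597 and 0.0784 when any 1 of the 5 tumor samples, normal sample 4 or normal sample 5 was left out, and over all alternatives run it was 0.00453 to 0.819. Acinar markers moved the same way: 17 of 22 fell, and their share of summed signal was 0.011% to 0.274% on tumor arrays and 0.652% to 4.38% on normal arrays. Bhlha15 was the acinar marker well above background on 0 tumor arrays. The part of acinar RNA in the Onecut1 result was not tested.

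Grhl2, a transcription factor that maintains epithelial identity, had the largest positive difference of the 26 epithelial genes. Grhl2 had values of -0.37, 0.99, 0.40, -1.38 and -0.48 in tumor samples 1, 2, 3, 4 with 6, and 5, and of -1.90, -2.23, -2.35, -5.34 and -1.89 in normal samples 1, 2 with 3, 4, 5 and 6. The lowest tumor sample lay above the highest normal sample. Groups without overlap were seen for 2 of the 26 genes, Grhl2 and Onecut1, and for 3.43% of all genes tested. The difference of Grhl2 was 2.58 ± 0.68 (log2, SE, 95% interval 1.07 to 4.08) and missed the threshold (limma adjusted p = 0.136). Another probe of Grhl2, well above background on 6 of 6 tumor and 5 of 6 normal arrays, differed by 0.39, and within groups the probes correlated at -0.50 over 10 samples. Within slides 1, 2 and 3 the brightest Grhl2 probe differed by 2.31, 1.94 and 2.61.

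Sox9, a transcription factor of ductal progenitors, was well above background on 0 of 12 arrays, with values of -5.68 to -4.54 in tumor and -5.94 to -3.96 in normal samples. Elf3, an epithelial ETS factor, was well above background on 1 of 12 arrays, again that of tumor sample 5, where it read -3.28, against -6.07 to -5.02 in the other tumor samples and -6.04 to -4.28 in normal samples. In all, 7 of the 34 genes did not pass the filter on dim probes: Cdh1, Cldn1, Cldn18, Ocln, Sox9, Cftr and Elf3. The number well above background on all 12 arrays was 16.

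**Figure D2:**
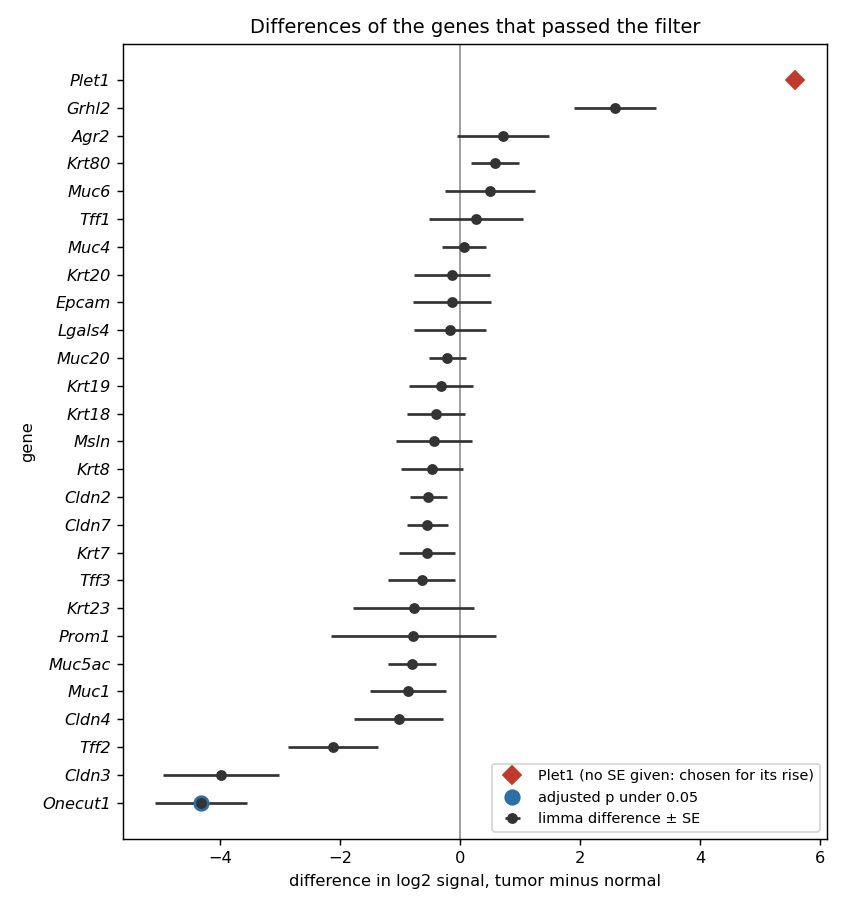
Difference in log2 signal, tumor minus normal, of the 27 genes that passed the filter, with the limma standard error over 5 samples per group (none is given for Plet1, which was chosen for its rise). Plet1 lies at 5.59, Grhl2 at 2.58 and Onecut1, the 1 gene past the threshold, at -4.31.

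The epithelial genes tended to vary together between samples of the same group. The mean over the 26 genes was -0.44, -0.54, -0.16, -0.54 and 0.45 in tumor samples 1, 2, 3, 4 with 6, and 5, and 0.099, 1.34, 0.49, 0.41 and -0.78 in normal samples 1, 2 with 3, 4, 5 and 6. The highest and the lowest mean were both of normal samples. In the normal group, sample 2 with 3 was highest for 16 of the 26 genes and sample 6 was lowest for 13. Among the 16 genes above background on all 12 arrays, the sample of normal arrays 2 and 3 was still highest for 10 and normal sample 6 lowest for 8. In the tumor group, sample 5 was highest for 12 of the 26.

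The mean of the acinar markers had the same highest sample in each group and the same lowest normal sample. It was -2.39, -1.25, 0.18, 1.53 and 2.31 in tumor samples 1, 2, 3, 4 with 6, and 5, and 5.80, 7.54, 6.31, 6.71 and 3.66 in normal samples 1, 2 with 3, 4, 5 and 6. Tumor sample 5 and normal sample 2 with 3 were highest in their groups, and normal sample 6 was lowest in its group. The lowest tumor sample differed: the acinar mean was lowest in sample 1, the epithelial mean in samples 2 and 4 with 6 (-0.54 each). The part of acinar RNA in the variation of the epithelial genes was not tested.

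After removal of group means, the median correlation of an epithelial gene with the mean of the others was 0.66 over 10 samples, and 20 of 26 were positive. Tff2 (0.93), Tff1 (0.89), Lgals4 (0.87) and Muc1 (0.84) followed the mean most closely. Krt80 ran against it at -0.75, and Cldn2, Grhl2 and Muc5ac were also negative (-0.26, -0.22 and -0.20). The correlation of Krt8 with Krt18 was 0.99. Over the 10 pairs of Krt7, Krt8, Krt18, Krt19 and Krt20, with Krt23 and Krt80 left out, the median was 0.81 and the lowest 0.090. Over all 325 pairs of the 26 genes the median was only 0.22. These correlations are descriptions. All points share the scaling of their array, and the samples also differ in depth of signal.

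With the groups pooled, Plet1 showed little of this common variation. Its correlation with the epithelial mean within groups was 0.13, which ranked 6251 of 16291 genes, and 18 of the 26 epithelial genes ranked above it. The normal sample with the highest epithelial mean, 2 with 3, also had the highest Plet1 of its group (-0.091), but normal sample 6, with the lowest epithelial mean, had the next highest Plet1 (-1.68). In tumor, samples 1 and 2 had the most Plet1 (4.27 and 4.23), with epithelial means of -0.44 and -0.54. Plet1 was not well above background in normal samples 1 and 4, and normal sample 2 with 3 came from the arrays with the lowest signal. This limits any correlation with Plet1 in the normal group.

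**Figure D3:**
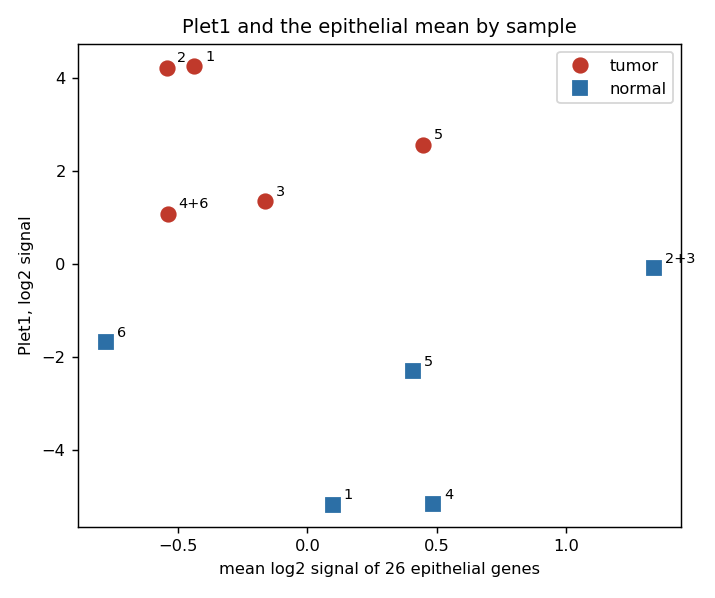
Plet1 log2 signal against the mean log2 signal of 26 epithelial genes, 1 point per sample with its replicate number, 5 tumor and 5 normal samples. Tumor samples lie above 1.08 in Plet1 at epithelial means of -0.54 to 0.45, and normal samples lie below 0 at means of -0.78 to 1.34.

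Gene by gene, no relation to Plet1 within groups passed the test. In limma with group and Plet1 as terms, 0 of 16290 genes passed an adjusted p under 0.05 (0% of genes, with 646 at an unadjusted p under 0.05), and the same test with the other Plet1 probe passed 1 gene, AI415730, which is not an epithelial gene of the list and is named after its value was seen. The median correlation of the 26 epithelial genes with Plet1 was 0.050, with 15 positive, beside a median of 0.013 over all genes. It was -0.27 without normal sample 2 with 3 and 0.23 without normal sample 6. Epcam correlated with Plet1 at -0.17, Krt8 at -0.020, Krt18 at 0.038 and Krt19 at 0.25. These values pool the groups, and for some genes the sign differed between tumor and normal. Muc6 correlated at -0.80 in tumor and 0.82 in normal samples, and Krt7 at -0.54 and 0.68. For others it did not, such as Krt19 (0.31 and 0.22) and Cldn4 (0.45 and 0.74). Values of single groups rest on 5 samples and are descriptions.

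The range ran from -0.46 for Agr2 to 0.66 for Cldn4. For Cldn4, Pearson's r was 0.66 (exact permutation within groups, p = 0.0582, adjusted p = 0.999) and Spearman's rho was 0.68 (exact permutation p = 0.0479, adjusted p = 1), over 10 samples and 16290 genes. Without normal samples 1 and 4, the 2 samples farthest from the median of Plet1, r was 0.55 for Cldn4. Normal sample 2 with 3, the highest of its group for both genes (Cldn4 2.17, Plet1 -0.091), was kept there. The smallest p these permutations can give is 6.94e-05, too large for a single gene to pass after adjustment over 16290 genes, so the adjusted permutation p is no evidence on any of the 26.

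**Figure D4:**
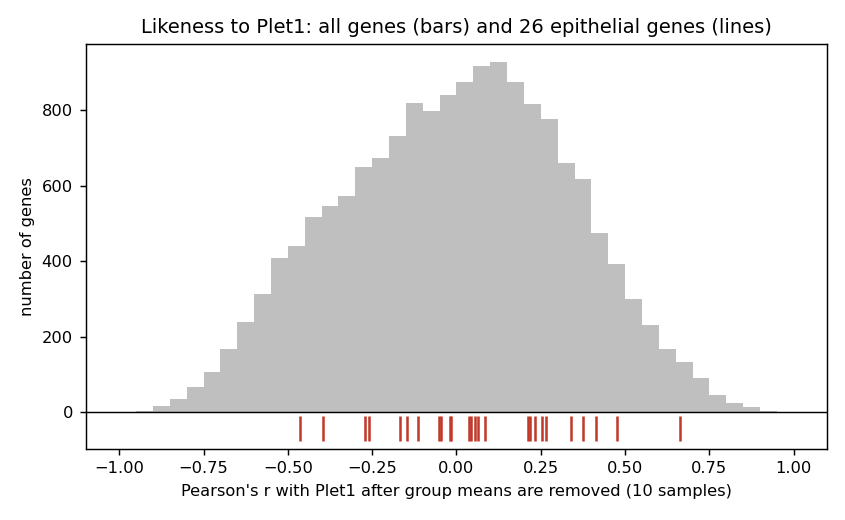
Pearson's r with Plet1 after group means are removed, over 10 samples, as a histogram of 16290 genes (bars, number of genes) with the 26 epithelial genes as ticks below it. The ticks run from -0.46 to 0.66 around a median of 0.050, inside the range of all genes.

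The genes most like Plet1 within groups, by the highest r over the 10 samples, were Hspb6 (0.93), a small heat shock protein, Casp16 (0.91), a caspase relative, and Hsd17b7 (0.89), an enzyme of cholesterol synthesis. Next came Eftud2 (0.88), a GTPase of the spliceosome, Fam149b (0.88), Amz2 (0.88), a metallopeptidase, Lmo1 (0.87), a LIM-domain cofactor, and Vrk3 (0.87), a kinase relative. They were picked as the top of 16290 genes, so their r is a description with no test. None of these 8 passed the threshold between tumor and normal in limma, with differences of -0.46 to 0.99. Casp16, Hsd17b7 and Lmo1 were dim, with means of -2.43, -2.59 and -3.07 in tumor and -2.17, -3.03 and -2.67 in normal samples. A gene near the floor reads higher on the dim normal arrays 2 and 3, whose sample had the highest Plet1 of the normal group. The part of this in these r values was not tested.

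**Figure D5:**
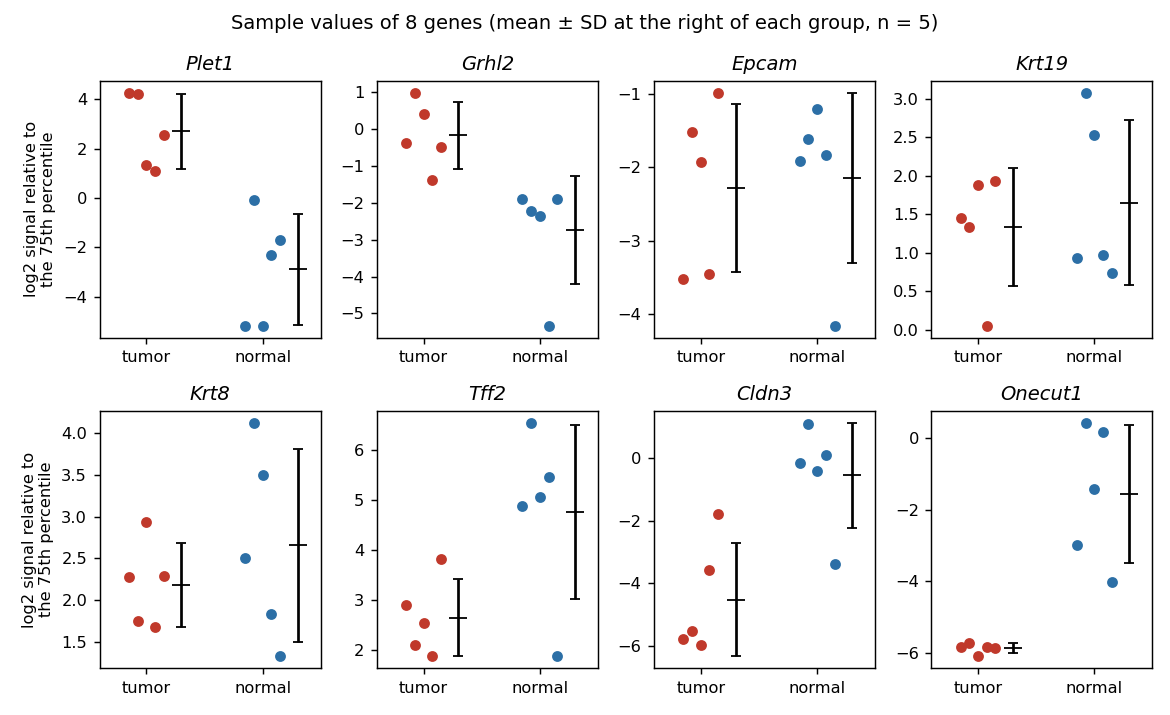
Relative log2 signal of 8 genes (75th percentile of each array at 0), 1 point per sample, tumor left of normal, with the mean and SD of 5 samples beside each group. Tumor and normal do not overlap for Plet1, Grhl2 and Onecut1, and overlap for Epcam, Krt19, Krt8, Tff2 and Cldn3.

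A wider list of epithelial markers outside the 33 also held no call. Of 56 genes 37 were tested, of which 0 rose and 0 fell in limma, with 8 positive differences and a median of -0.34 on the log2 scale. The largest differences were -2.25 for Dsg2, a desmosomal cadherin, -2.14 for Rab25, a GTPase of apical recycling, and -1.91 for Mmp7, a protease of ductal metaplasia, with limma adjusted p of 0.364, 0.519 and 0.447. Mmp7 was well above background on 0 tumor arrays and 3 normal arrays, and Rab25 on 2 tumor arrays and 5 normal arrays. Both passed the filter on dim probes only through the normal group, where they were higher. The differences of Mmp7 and Rab25 are thus partly distances to the floor, and their size is uncertain. The median correlation of the 37 tested genes with Plet1 within groups was 0.12. Of 9 mesothelial markers 2 were tested, Wt1 and Nkain4, which differed by 0.88 and -0.070, and 0 passed.

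Other cells that can carry Plet1 or stand in the sort were read beside it. Of 16 dendritic cell markers 13 were tested, and 1 rose, Ccl17, a chemokine, by 3.44 ± 0.67 (log2, SE, limma adjusted p = 0.0450). The dendritic median was 1.16, with 11 positive, and the share of summed signal was 0.0579% to 0.202% on tumor arrays and 0.0653% to 0.084% on normal arrays. Flt3 and Zbtb46, defining genes of dendritic cells, differed by 1.16 and -0.22 with limma adjusted p of 0.485 and 0.911. The markers with a negative difference were Zbtb46 and Siglech (-0.24). Ccr7, Fscn1, Dpp4, Itgae and Itgax differed by 2.41, 1.74, 1.71, 1.53 and 1.21, and none of them passed the threshold. The median correlation of the dendritic markers with Plet1 within groups was 0.13, from -0.55 for Batf3 to 0.50 for Ccr7.

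Of 13 neutrophil markers 11 were tested, and 1 rose, Retnlg, a resistin-like protein (limma adjusted p = 0.0331). Retnlg was detected above background on 6 of 6 tumor and 2 of 6 normal arrays, so it passed the filter through the tumor group, and the size of its difference of 4.34 is uncertain. The neutrophil list had a median difference of 1.18, with 8 of 11 positive, and a median correlation with Plet1 of 0.25. Mmp9 had the largest negative difference of the list, -2.37 (limma adjusted p = 0.124). Some genes of the list, such as S100a8 (5 of 6 tumor and 0 of 6 normal arrays), passed the filter only through the tumor group. Their differences are partly distances to the floor, which limits that median. Neutrophil markers held 0.0208% to 0.0277% of summed signal on tumor arrays and 0.0134% to 0.022% on normal arrays. A summed share weighs bright genes most, and Csf3r had the highest mean of the list in both groups (4.34 in tumor, 4.33 in normal). Macrophage markers had a median difference of -0.14 and a median correlation with Plet1 of -0.35. The part of any of these cells in the Plet1 signal was not tested. Of the fibroblast, endothelial and islet lists, 10 of 13, 10 of 11 and 6 of 8 genes were tested, 0 passed in limma, and the medians were -0.020, -0.69 and -2.02. The T and NK cell list (6 of 8 tested) and the B cell list (3 of 5) also had 0 past the threshold, with medians of -0.42 and -0.46.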

How the data were processed

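RNA of sorted macrophages was amplified as cDNA (Sigma WTA2) and labelled with Cy5 for 12 single-colour arrays, per the labels' protocols. The authors deposited red-channel intensity values for each spot, already background-subtracted by Agilent Feature Extraction 11.5.1.1, per the file headers. Amplification can alter the balance between transcripts. The authors also deposited log2 values per probe, whose column medians were 7.08 and which differed from quantile-normalized log2 processed signals by a median of 0.000129 over 39429 probes.

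From the intensities, control and outlier-flagged spots were left out, log2 signals were averaged per probe, and each array was centred on its 75th percentile. A probe was kept if it stood well above background on 3 or more of the 6 arrays of a group, and the brightest probe stood for a gene (16402 genes), named through the RefSeq gene table of GRCm38.p6 where accessions matched (27981 probes). The comparison of tumor with normal used lmFit and eBayes of limma 3.58.1 (R 4.3.3). Tests were two-sided, with Benjamini-Hochberg adjustment over all genes and a threshold of 0.05. A fold marked "at least" sets the bright group against the higher of each dim array's lowest detected signal and the probe's own signal. Likeness to Plet1 used group and Plet1 as terms in limma, and exact permutations inside groups (14400, smallest p 6.94e-05).

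The arrays lay on 3 slides with 2 arrays of each group apiece. No label ties a sample name to an animal of its own. The p-values therefore rest on the scatter of these 10 samples, part of which may be technical, and the number of arrays limits precision. Scripts were tested on simulated data. The members and gene lists were chosen with earlier results of these data known. The genes named are the members, the 8 genes most like Plet1, and genes of the wider epithelial, mesothelial, dendritic and neutrophil lists. Of those lists, genes past the threshold or else up to 3 with the largest difference were named. The other lists are given as summaries, apart from Bhlha15 and Cd163. Flt3, Zbtb46 and Bhlha15 were added as defining markers after their values were seen. Cd163, Mmp9, S100a8, Csf3r and the other dendritic markers were also named after their values were seen. Alternatives covered background correction, scaling, the log2 table, the filter, arrays that share a name, slides, probes, flags, the variance model and each sample left out.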

Additional observations from a re-analysis of the deposited data

Results flagged for a closer look

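Of 54 groups of 5 samples (27 genes in tumor and in normal), 3 had 1 sample that stood apart from the others by Dixon's ratio, and chance flags about 1 in 20 groups. Krt23 in tumor sample 5 was high at -1.17, with the nearest tumor sample at -3.95. Epcam in normal sample 6 was low at -4.17, with the nearest normal sample at -1.91. Grhl2 in normal sample 5 was low at -5.34, with the nearest normal sample at -2.35. Without normal sample 5 the difference of Grhl2 was 1.93 (limma adjusted p = 0.135).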

How the results depend on the processing

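Over 27274 genes without a filter to 12970 with the strictest, 0 of the epithelial genes passed as higher in tumor in limma under every alternative run (1 to 3 at an unadjusted p under 0.05), and the Plet1 difference stayed between 3.79 and 6.84. The number passing as lower (1) was 0 with quantile normalization, with the authors' table, with all 6 arrays required (where Onecut1 was not tested) and within each slide, 2 with 12 arrays and with trended robust variances, and 0 to 3 with a sample left out (0 without tumor samples 1, 2, 3 or 4 with 6 or normal samples 4 or 5, and 3 without normal sample 6). Of all genes, 52 were higher and 84 lower. Higher genes numbered 99 with normexp, 98 with all 6 arrays required, 227 with 12 arrays and 118 with trended robust variances, and lower genes 233 with 12 arrays. Both counts were 0 within slides 1, 2 and 3 (1584, 1572 and 948 genes at an unadjusted p under 0.05). With a sample left out the higher count ran from 28 to 78 and the lower count from 35 to 119, both highest without normal sample 6. The higher count was 28 without tumor sample 1, tumor sample 2 or normal sample 5, 34 without tumor sample 5 and 32 without normal sample 4, and the lower count was 52, 46 and 55 without tumor samples 1, 2 and 3 and 47 and 35 without normal samples 1 and 5. The number of genes related to Plet1 was 1 with its other probe. The median r of the epithelial genes with Plet1 was 0.21 with 12 arrays and -0.27 to 0.23 with a sample left out. The cause of these shifts was not tested.

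Of 619 member values under alternatives, 564 kept direction and side of the threshold, 12 lost a call, 5 gained one and 38 changed sign, none of them a called value. Within slide 3 these were Epcam (0.96), Krt8 (0.37), Krt18 (0.41), Krt19 (0.058), Krt20 (1.12), Krt23 (1.41), Muc1 (0.19), Msln (0.69), Lgals4 (1.26) and Prom1 (0.14). Within slide 2 they were Cldn2 (0.39), Muc4 (-0.28), Muc6 (-0.032), Muc20 (0.081) and Tff1 (-1.43), and within slide 1 Tff1 (-1.50) and Agr2 (-0.52). Scaling on macrophage genes turned Epcam (0.044), Krt20 (0.044) and Lgals4 (0.0092), normexp turned Muc4 (-0.18), and 12 arrays turned Tff1 (-0.30). With a sample left out, the ranges that crossed 0 were -0.64 to 0.17 for Epcam (positive without tumor samples 1 or 4 with 6 or normal sample 4), -0.55 to 0.039 for Krt19 (tumor 4 with 6, normal 2 with 3), -0.55 to 0.41 for Krt20 (tumor 2, normal 2 with 3), -0.73 to 0.12 for Lgals4 and -0.81 to 0.048 for Msln (both normal 2 with 3), and -1.68 to 0.24 for Prom1 (tumor 4 with 6). They were -0.14 to 0.29 for Muc4 (negative without tumor 1 or 4 with 6 or normal 1), -0.20 to 1.02 for Muc6 (normal 1) and -0.32 to 0.88 for Tff1 (tumor 5 or normal 6). Signal over background limits Plet1, Epcam, Krt23, Cldn3, Cldn4, Muc4, Muc6, Agr2, Prom1, Onecut1 and Grhl2, which were not well above background on every array. No paired analysis was possible because no sample name or number is shared between tumor and normal samples, and the replicate numbers used here are names only.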
